A study of Oryza sativa with 12 samples.

Results

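NAC transcription factors are plant-specific regulators that bind DNA through an N-terminal NAM/NAC domain and control transcription through a variable C-terminal part. In rice, members of the family are known for responses to drought, salt and pathogens, for senescence, for secondary-wall formation and for the boundaries of meristems. The members described here are all genes of the deposited expression table whose description holds the NAM/NAC domain (PF02365), joined by identifier to the tables of counts. They are 95 of 41620 genes. Of these, 91 carry a RAP-DB identifier and 4 are unannotated transcripts. All 95, and no other gene of the table, are also classed there as NAM transcription factors. Several names are used for more than 1 gene (NAC6, NAC5, NAC8 and NAC1), so the identifiers are given.

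RNA was sequenced from roots of rice seedlings aged 3 wk, of WT (cv. Nipponbare) and of the line Os1400-12SIII. In this line CRISPR/Cas9 disrupted a MAX1 homolog, the cytochrome P450 that hydroxylates the strigolactone 4-deoxyorobanchol into orobanchol. Seedlings were grown in hydroponic culture for 2 wk with phosphate (+Pi) or at 0.004 mM phosphate (low-Pi). There were 4 groups of 3 libraries: WT +Pi, Os1400 +Pi, WT low-Pi and Os1400 low-Pi. A single Os1400 line was sequenced. The study calls its replicates biological without saying whether they were separate cultures, so p-values measure the spread between these libraries. Os01g0701400, the disrupted gene, was listed at 0 FPKM in all 12 libraries and could not check the genotype labels.

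The libraries held 28271749 to 41078078 counts. The 3 low-Pi WT libraries stood apart from the rest. They had counts for 17711 to 22077 genes, whereas the other 9 libraries had counts for 27191 to 30375. In them, 39, 45 and 54 NAC genes were above 0 FPKM (fragments scaled to gene length and library size), against 67 to 75 in the other libraries. Of 60 NAC genes with at least 10 counts in each +Pi library, 25 were at 0 in at least 1 low-Pi WT library and 3 in at least 1 low-Pi Os1400 library. In the low-Pi WT libraries, 1, 0 and 1 NAC genes had between 1 and 9 counts, compared with 2 to 10 NAC genes in each of the others. The 4 root markers summed to between 2041 and 8057 FPKM across the 12 libraries, and NRT2.1, the nitrate transporter among them, was at 0 in 3 of the 4 groups. The 6 markers of green tissue summed to at most 12.5 FPKM, and 4 of them were at 0 in all low-Pi WT libraries. The effect of Pi supply in Os1400 uses none of the low-Pi WT libraries and is therefore described first.

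The family spanned a wide range of levels in roots. Over the 12 libraries, 13 genes were listed at 0 FPKM throughout, 25 had a mean above 0 but under 1 FPKM, 33 had a mean of 1 to 10, 20 of 10 to 50 and 4 of at least 50 FPKM. A total of 30 genes had at least 1 FPKM in every library. NAC36 (Os05g0426200, chromosome 5 from 20880323 to 20884441, minus strand), which binds an iron-deficiency-responsive promoter element in rice, was the most abundant, with a mean of 194 FPKM. It alone held 19.0% of the summed mean FPKM of the family, and the 6 most abundant genes held 43.6%. The other 5 were NAC1 (Os02g0579000) at 61.9 FPKM, NAC5 (Os11g0184900) at 55.9, NAC6 (Os01g0884300) at 52.1, NAC62 (Os05g0563000) at 43.8 and NAC40 (Os08g0562200) at 38.2. The genome build is not given in the sources used here, so positions are those of the authors' table.

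**Figure D1:**
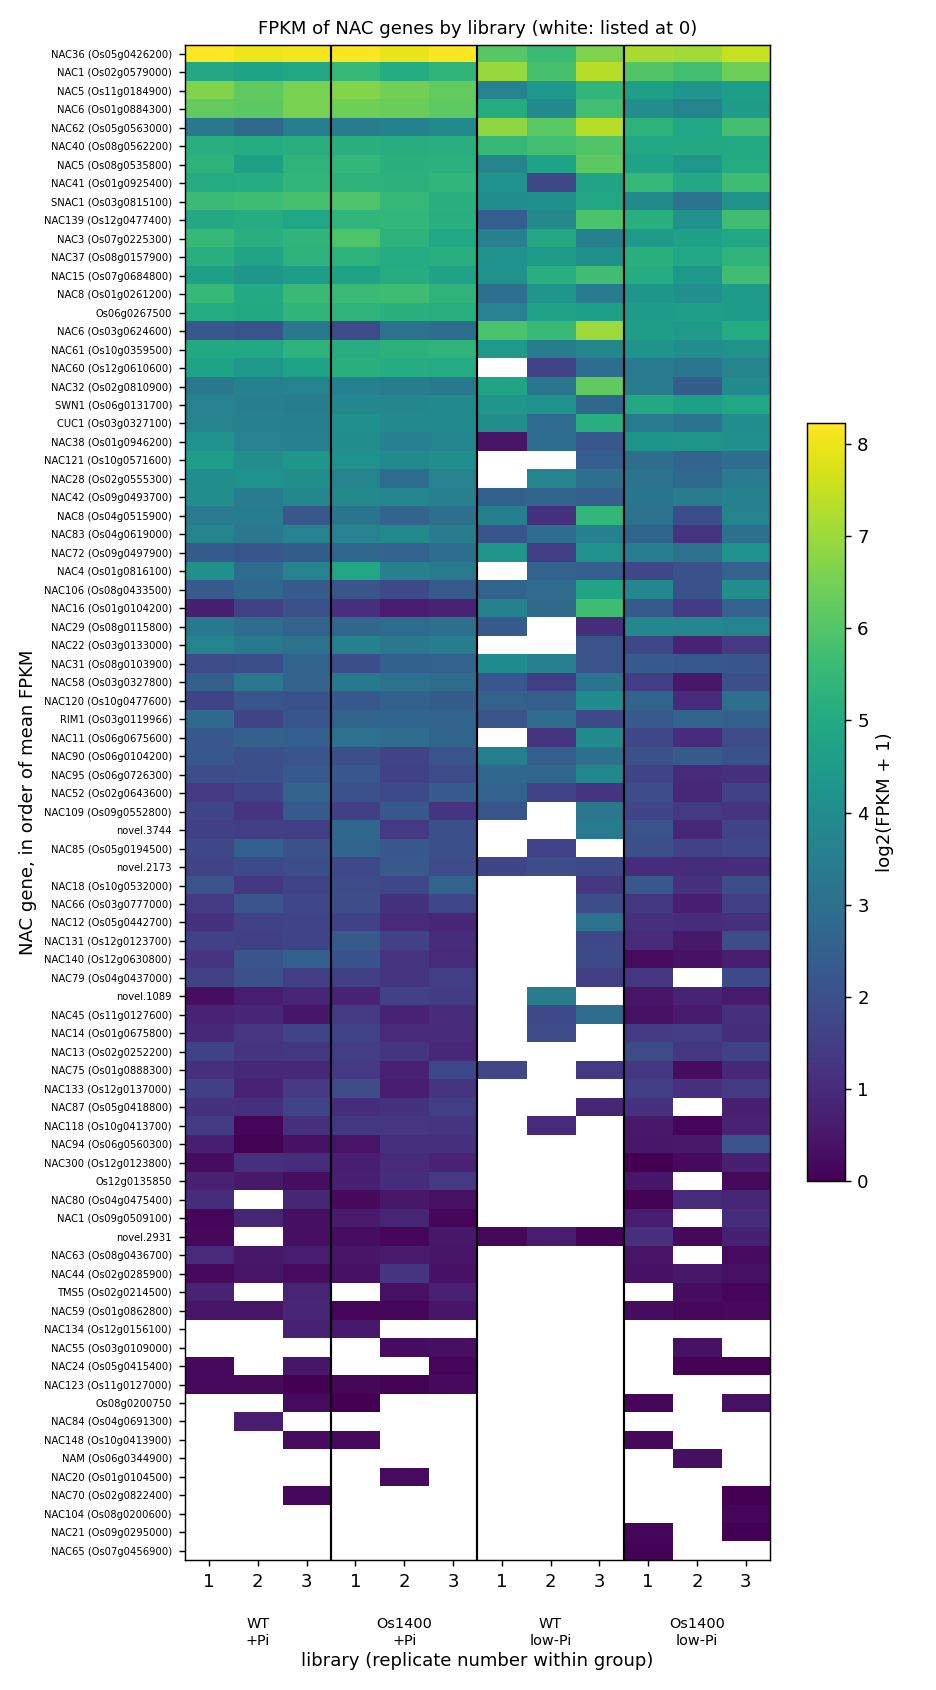
FPKM of the 82 NAC genes that were above 0 in at least 1 of the 12 libraries, as log2(FPKM + 1), with genes in rows by falling mean and libraries in columns by group. White cells are listed at 0 and gather in the 3 low-Pi WT columns, where 39, 45 and 54 NAC genes were above 0.

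The genes listed at 0 included a cluster of neighbours on chromosome 11, NAC25 (Os11g0512000), NAC127 (Os11g0512100), NAC128 (Os11g0512200) and NAC129 (Os11g0512600), which lie between 18288358 and 18314023 on the plus strand. NAC127 and NAC129 are known for grain filling. CUC3 (Os08g0511200), a meristem boundary gene, was also at 0, and NAM (Os06g0344900) reached 0.272 FPKM in 1 Os1400 low-Pi library and was 0 in the other 11. By contrast, CUC1 (Os03g0327100) was between 6.30 and 34.7 FPKM in every library. A listed 0 leaves the limit that depth sets, since 3 counts correspond to 0.073 to 0.106 CPM (counts scaled to library size) in these libraries. This limit covers counting error only.

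In Os1400, low-Pi lowered the stress-responsive NAC5 (Os11g0184900), NAC6 (Os01g0884300) and SNAC1 (Os03g0815100) by 1.89, 2.17 and 1.76 on the log2 scale. It raised NAC62 and Os03g0624600 by 1.88 and 2.26, and SWN1 and NAC29, which act in secondary-wall formation, by 1.13 and 1.09. Of 67 NAC genes tested, 22 changed, with 8 higher and 14 lower in low-Pi (edgeR quasi-likelihood test, FDR of 0.05 or less over all genes). Among all 27647 genes tested, 29.6% changed, 15.6% higher and 14.0% lower. The shares among NAC genes were 32.8%, 11.9% and 20.9%. The median log2 fold change was -0.36 over the NAC genes and -0.0028 over all genes. The share of changed NAC genes was thus close to the background, with more of them lower than higher. The other 28 NAC genes could not be tested, because of too few counts or no row in a table. Bulk libraries cannot tell fewer cells of a type from less RNA per cell.

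NAC5 (Os11g0184900, chromosome 11 from 4299277 to 4301784, minus strand), a stress-responsive activator, showed the smallest p among the genes that fell. It stood at 102, 88.2 and 75.7 FPKM in Os1400 +Pi and at 24.6, 18.7 and 23.6 FPKM in Os1400 low-Pi. All low-Pi libraries lay far under the lowest +Pi library, a log2 fold change of -1.89 ± 0.16 (SE, FDR = 2.88e-05). NAC6 (Os01g0884300, also called SNAC2, chromosome 1 from 38398996 to 38401481, minus strand), which raises stress tolerance when overexpressed, was at 84.1, 81.8 and 71.9 FPKM with Pi and 15.3, 12.1 and 22.2 FPKM in low-Pi. The groups did not overlap and the log2 fold change was -2.17 ± 0.20 (SE, FDR = 5.70e-05). It overlaps a gene on the opposite strand over 570 bases, and whether the counting used strand is not given in the sources used here, so its level is uncertain to that extent.

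SNAC1 (Os03g0815100, chromosome 3 from 34166100 to 34167521, plus strand), which acts in guard cells under drought, was at 60.6, 44.0 and 35.9 FPKM in Os1400 +Pi and at 13.9, 7.82 and 17.1 FPKM in low-Pi. Again every low-Pi library was below every +Pi library (log2 fold change -1.76 ± 0.28 (SE), FDR = 0.00126). NAC4 (Os01g0816100), which induces hypersensitive cell death, fell more, from 27.8, 11.0 and 9.27 FPKM to 2.47, 3.16 and 4.99 FPKM (log2 fold change -2.08 ± 0.43 (SE), FDR = 0.00502). NAC22 (Os03g0133000), known for drought and salt tolerance, fell by 2.55 on the log2 scale (SE 0.39, FDR = 9.64e-04). Its levels were 11.2, 8.71 and 10.1 FPKM with Pi and 2.44, 0.774 and 1.56 FPKM in low-Pi, so it had the largest fall of the 14 genes. The stress genes on the list of companion genes, which holds genes known downstream of NAC proteins or marking their processes, were not called. LEA3 had a log2 fold change of 1.56 ± 0.70 (SE, FDR = 0.125) and RAB16A of -0.46 ± 1.198 (SE, FDR = 0.816), and both were at most 2.63 FPKM in Os1400.

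The miR164-targeted members did not move together. NAC60 (Os12g0610600, chromosome 12 from 25800944 to 25806504, plus strand) fell from 35.9, 32.7 and 32.0 FPKM to 9.47, 8.42 and 11.7 FPKM (log2 fold change -1.67 ± 0.16 (SE), FDR = 6.08e-05). NAC1 (Os02g0579000, chromosome 2 from 22258846 to 22260658, plus strand) rose from 44.7, 33.04 and 40.4 FPKM to 63.2, 52.3 and 83.9 FPKM (log2 fold change 0.85 ± 0.18 (SE), FDR = 0.0063). Neither pair of groups overlapped. NAC11 (Os06g0675600), which was singled out after its values were seen, also fell, by 1.52 on the log2 scale (SE 0.36, FDR = 0.0103), and NAC104 (Os08g0200600) was above 0 in 1 library only, at 0.0964 FPKM.

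Among the remaining genes that fell were NAC61 (Os10g0359500, log2 fold change -1.02 ± 0.13 (SE), FDR = 3.63e-04) and NAC8 (Os01g0261200), a membrane-associated factor of the ER stress and heat response (-1.13 ± 0.15 (SE), FDR = 3.93e-04). Of the named genes that fell, NAC36 had the smallest log2 fold change but the largest difference in FPKM. It was at 288, 254 and 288 FPKM in Os1400 +Pi and at 143, 136 and 183 FPKM in Os1400 low-Pi (log2 fold change -0.75 ± 0.14 (SE), FDR = 0.00268). The target of the iron-responsive factor on the list of companion genes, the iron-nicotianamine transporter YSL2, did not pass the test (0.64 ± 0.83 (SE), FDR = 0.622), and it stayed under 1 FPKM in every library. NAC58 (Os03g0327800), a regulator of leaf senescence that was singled out after its values were seen, fell by 2.02 on the log2 scale (SE 0.52, FDR = 0.0158). NAC106 (Os08g0433500), which delays leaf senescence, rose by 1.75 (SE 0.49, FDR = 0.0238), although the low-Pi library at 3.21 FPKM lay inside the +Pi range of 2.62 to 4.02 FPKM, the other 2 being at 12.8 and 15.8. The chlorophyll breakdown genes SGR, NYC1 and NYC3 did not pass the test, with log2 fold changes of -0.48 to 0.33. The other 3 genes that fell had log2 fold changes of -1.40 to -0.58.

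Of the genes that rose, NAC62 (Os05g0563000, chromosome 5 from 28003165 to 28004999, plus strand) went from 10.2, 11.2 and 13.6 FPKM to 38.9, 27.9 and 54.1 FPKM (log2 fold change 1.88 ± 0.23 (SE), FDR = 2.75e-04). Os03g0624600 (NAC6 in the authors' table, chromosome 3 from 23734580 to 23736562, plus strand) went from 2.75, 7.40 and 6.77 FPKM to 23.4, 20.3 and 32.0 FPKM (2.26 ± 0.34 (SE), FDR = 8.91e-04). In both, the lowest low-Pi library was above the highest +Pi library. Os03g0624600 shares 1023 bases with a gene on the opposite strand. NAC16 (Os01g0104200) rose by 2.22 on the log2 scale (SE 0.56, FDR = 0.0135), from 1.17, 0.559 and 0.712 FPKM to 3.99, 1.69 and 4.97 FPKM. NAC72 (Os09g0497900) rose by 1.12 (SE 0.29, FDR = 0.0164), from 5.64, 4.997 and 6.77 FPKM to 10.5, 7.48 and 17.4 FPKM.

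SWN1 (SECONDARY WALL NAC, Os06g0131700, chromosome 6 from 1699521 to 1702611, minus strand), a master switch of secondary-wall formation, was at 13.4, 13.1 and 14.4 FPKM in Os1400 +Pi and at 30.2, 24.2 and 28.9 FPKM in Os1400 low-Pi. The libraries of the groups were tightly spaced and did not overlap (log2 fold change 1.13 ± 0.14 (SE), FDR = 3.14e-04). NAC29 (Os08g0115800, chromosome 8 from 856107 to 858238, plus strand), a regulator of secondary-wall cellulose, rose to a like degree, from 5.61, 6.45 and 7.17 FPKM to 13.02, 13.04 and 12.2 FPKM (1.09 ± 0.18 (SE), FDR = 0.00167). NAC31 (Os08g0103900), also a secondary-wall cellulose regulator, had a log2 fold change of -0.04 ± 0.27 (SE, FDR = 0.932). SWN1 and NAC29 overlap opposite-strand genes over 602 and 566 bases.

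The cellulose synthases of secondary walls were measured beside these factors as companion genes. CESA4 (Os01g0750300) was at 45.7, 48.1 and 62.0 FPKM in Os1400 +Pi and at 128, 70.0 and 127 FPKM in low-Pi, and it rose by 1.16 on the log2 scale (SE 0.23, FDR = 0.00382). CESA9 (Os09g0422500) rose by 1.07 (SE 0.22, FDR = 0.00529), and CESA7 (Os10g0467800), at 0.947 to 1.96 FPKM, had a log2 fold change of 0.61 ± 0.31 (SE, FDR = 0.177). Thus 2 of the 9 companion genes passed the test in Os1400, both higher in low-Pi. Root markers moved in the same comparison, RCc3 by 1.29 (SE 0.20, FDR = 0.00123), and the silicon transporters Lsi1 by -1.79 (SE 0.30, FDR = 0.00151) and Lsi2 by -2.14 (SE 0.30, FDR = 5.70e-04), and their part in these results was not tested.

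**Figure D2:**
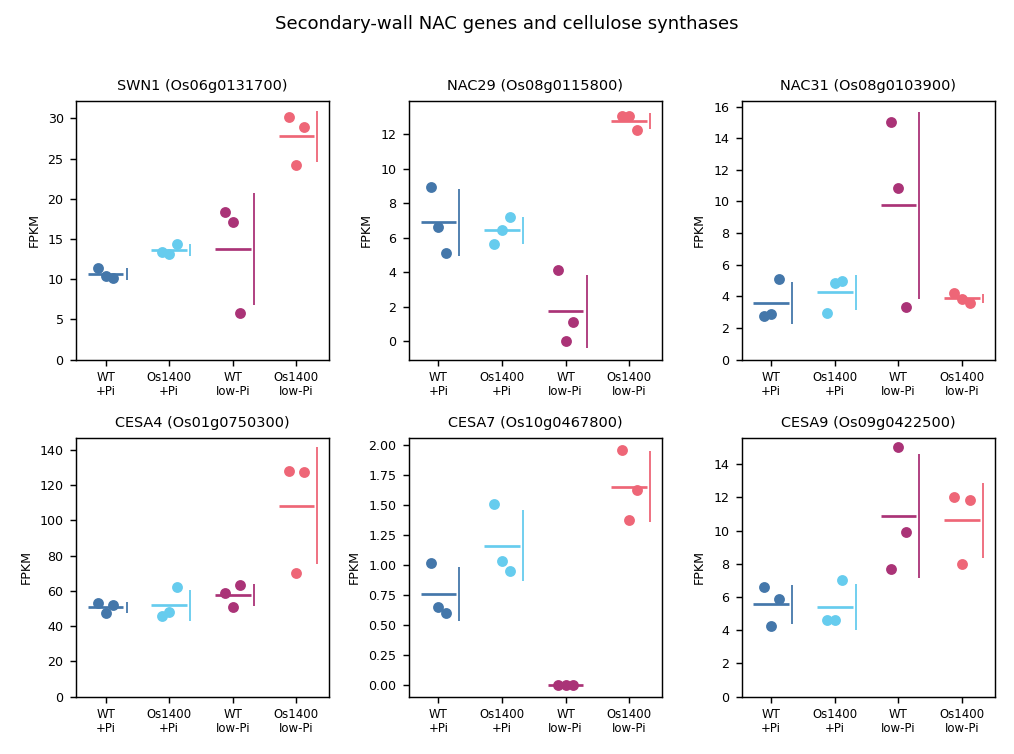
FPKM of 3 secondary-wall NAC genes and 3 cellulose synthases in the 12 libraries, with points for libraries, horizontal bars for group means and vertical bars for the SD of 3 libraries. SWN1 and NAC29 were highest in the Os1400 low-Pi group, at 24.2 to 30.2 and 12.2 to 13.04 FPKM.

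Leaving out 1 library changed the count of NAC genes called in Os1400 little, to between 19 and 24. The shares were 27.5% to 34.8%, against 20.4% to 28.2% of all genes. Fitting all 12 libraries at once, which brings in the low-Pi WT group and its spread, left 6 calls (NAC5 (Os11g0184900), NAC6 (Os01g0884300), SNAC1, NAC61, NAC62 and Os03g0624600), and these 6 were called under all 16 alternatives tried. Of the 6 leave-one-out fits, NAC106 lost its call in 4, NAC16 without Os1400 low-Pi replicate 1 or 3, NAC72 without Os1400 +Pi replicate 2 or Os1400 low-Pi replicate 3, and NAC58 without Os1400 low-Pi replicate 1.

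In WT, the same comparison raised Os03g0624600 and NAC62 most and lowered NAC36, NAC5 (Os11g0184900) and SNAC1. Of 61 NAC genes tested, 15 changed, with 3 higher and 12 lower, which is 24.6% of them, against 23.7% of all 25163 genes tested, 8.46% higher and 15.2% lower. The median log2 fold change was -0.80 over the NAC genes and -0.28 over all genes. Both came close to 0 under a stricter limit of 10 or more counts per gene in each library compared. That limit leaves out every gene at 0 in a low-Pi WT library, so some upward shift is built into it. It left 35 NAC genes, of which 4 were higher and 8 lower (11.4% and 22.9%, against 18.0% and 14.4% of all genes). The NAC median was then 0.013 and that of all genes 0.035, and 55.5% of the calls over all genes were higher, against 35.7% without this limit. Of the 15 NAC genes called first, 5 had no count in any low-Pi WT library, and the other 10 had counts in all 3. The highest gene was Os03g0624600, with a log2 fold change of 3.84 ± 0.58 (SE, FDR = 0.0104), from 3.82, 3.37 and 8.60 FPKM in WT +Pi to 58.0, 46.7 and 130 FPKM in WT low-Pi. NAC62 followed with 3.70 ± 0.38 (SE, FDR = 0.00421), from 8.77, 6.10 and 10.6 FPKM to 114, 69.2 and 160 FPKM.

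NAC1 (Os02g0579000) rose by 1.94 on the log2 scale (SE 0.37, FDR = 0.0151) from 29.9, 26.1 and 29.3 FPKM to 124, 55.7 and 160 FPKM. NAC36 fell by 1.99 on the log2 scale (SE 0.28, FDR = 0.00871) from 298, 258 and 268 FPKM to 67.4, 48.1 and 99.1 FPKM, and NAC5 (Os11g0184900) by 1.91 (SE 0.48, FDR = 0.0311) from 99.7, 72.5 and 93.2 FPKM to 11.4, 19.8 and 41.9 FPKM. In each of these genes all 3 low-Pi libraries were outside the +Pi range. SNAC1 had -1.37 ± 0.29 (SE, FDR = 0.0172), NAC8 (Os01g0261200) -1.83 ± 0.42 (SE, FDR = 0.0216), NAC61 -1.22 ± 0.29 (SE, FDR = 0.0264), NAC42 (Os09g0493700) -1.42 ± 0.29 (SE, FDR = 0.0154) and NAC37 (Os08g0157900) -0.93 ± 0.22 (SE, FDR = 0.0245). Stress-responsive NAC6 (Os01g0884300), at 32.9, 13.8 and 52.2 FPKM in WT low-Pi against 70.3 to 93.3 FPKM with Pi, had -1.33 ± 0.45 (SE) and was not called (FDR = 0.0871).

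The 5 genes at 0 in all low-Pi WT libraries were NAC13 (Os02g0252200), NAC133 (Os12g0137000), NAC63 (Os08g0436700), NAC59 (Os01g0862800) and NAC300 (Os12g0123800). Against a floor of 3 counts per library, WT +Pi was at least 26.6-fold higher for NAC13, 16.0-fold for NAC133, 14.4-fold for NAC300, 11.1-fold for NAC63 and 6.92-fold for NAC59. These genes had 0.222 to 2.02 FPKM in the WT +Pi libraries. They passed the filter on low counts only through the +Pi group, and all 5 tested NAC genes of this kind were called. These limits all lie below the median of the NAC genes, which they leave at -0.80. In the low-Pi WT libraries 15 of the 73 NAC genes with a row in both tables of counts were at 0 in all 3 libraries, 14 in 2 and 8 in 1. The part of the low number of detected genes in these calls was not tested. Of the companion genes, CESA7 alone passed the test in WT, being at 0 in all 3 low-Pi libraries. YSL2 and RAB16A were also at 0 in those libraries and were not tested. CESA4 had 0.14 ± 0.14 (SE, FDR = 0.598) and SWN1 0.33 ± 0.47 (SE, FDR = 0.714).

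The count in WT depended on single libraries and on the fit. With all 12 libraries in 1 fit it was 28, against 6 in Os1400, so the order of the genotypes turned. The difference between the counts was not tested. Over all genes the order turned too, with shares of 34.1% in WT and 8.92% in Os1400, against 40.6% and 8.70% of NAC genes. With a replicate block the count in WT was 6, with 3 higher and 3 lower (9.84%, against 7.72% of all genes). It was 5 without WT +Pi replicate 1, and 4 without WT +Pi replicate 3, while the omission of WT low-Pi replicate 3 gave 28. These were 7.81%, 6.56% and 40.6% of the NAC genes tested, against 7.11%, 7.06% and 33.8% of all genes. The other omissions gave 11 to 20 (16.7% to 29.4%, against 13.7% to 28.4% of all genes). NAC62, Os03g0624600 and NAC36 were called in all 16 alternatives.

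Of the NAC genes tested in both genotypes (60), 8 were called in both, all of them in the same direction. They were 57.1% of the 14 called in WT and 36.4% of the 22 called in Os1400, and the comparisons have no library in common. Over all 24898 genes tested in both, 2688 were called in both, which is 45.7% of the calls in WT and 33.4% of those in Os1400, and 95.2% of them had the same direction. The overlap among the NAC genes was thus near the background. NAC1 (Os02g0579000), NAC62 and Os03g0624600 rose in both, and NAC36, NAC5 (Os11g0184900), SNAC1, NAC8 (Os01g0261200) and NAC61 fell in both. NAC62, Os03g0624600 and NAC36 kept their WT call in all 6 leave-one-out fits of WT, and the other 5 kept it in 2 or 3. In WT the log2 fold changes of the 3 that rose were 1.94, 3.70 and 3.84, and in Os1400 they were 0.85, 1.88 and 2.26.

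**Figure D3:**
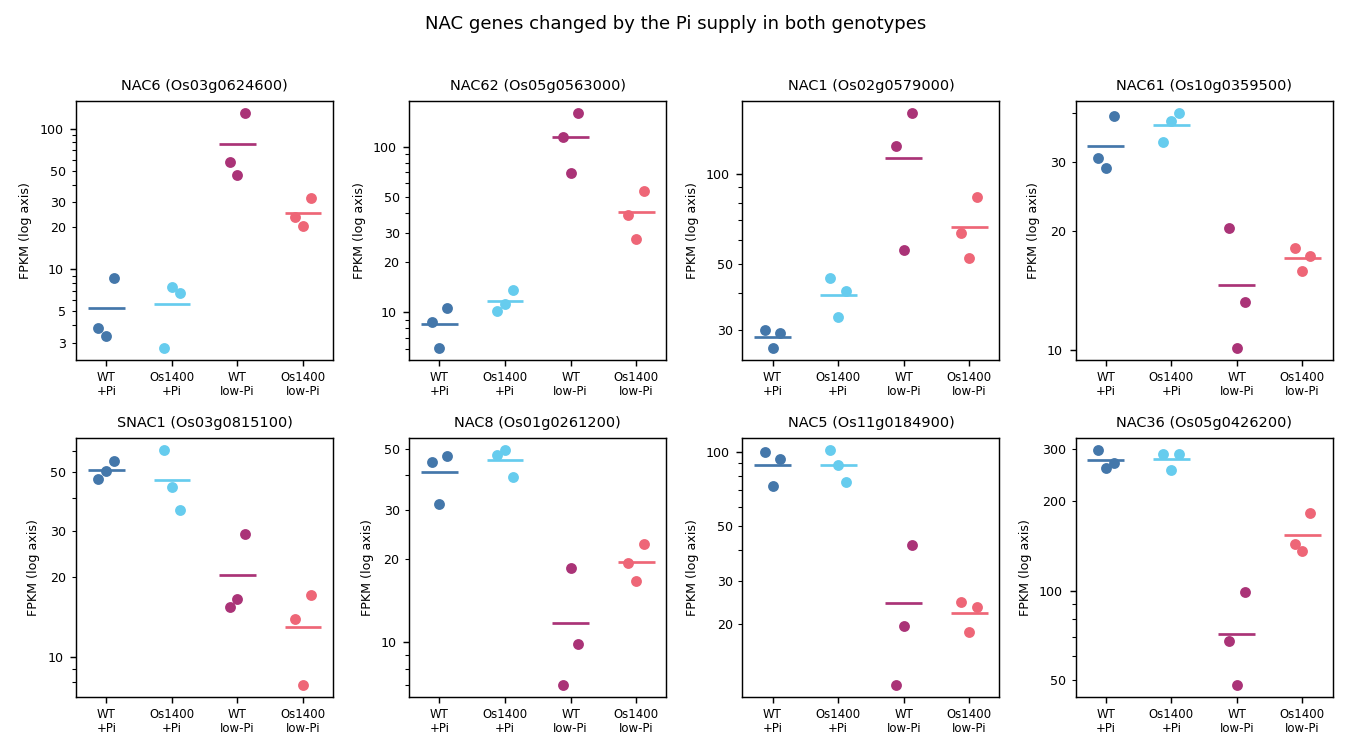
FPKM on a log axis of the 8 NAC genes called in both genotypes, with points for the 3 libraries of each group and bars for the group means. NAC62 rose from 6.10 to 13.6 FPKM in the +Pi libraries to 27.9 to 160 FPKM in the low-Pi libraries, and NAC36 fell from 254 to 298 FPKM to 48.1 to 183 FPKM.

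**Figure D4:**
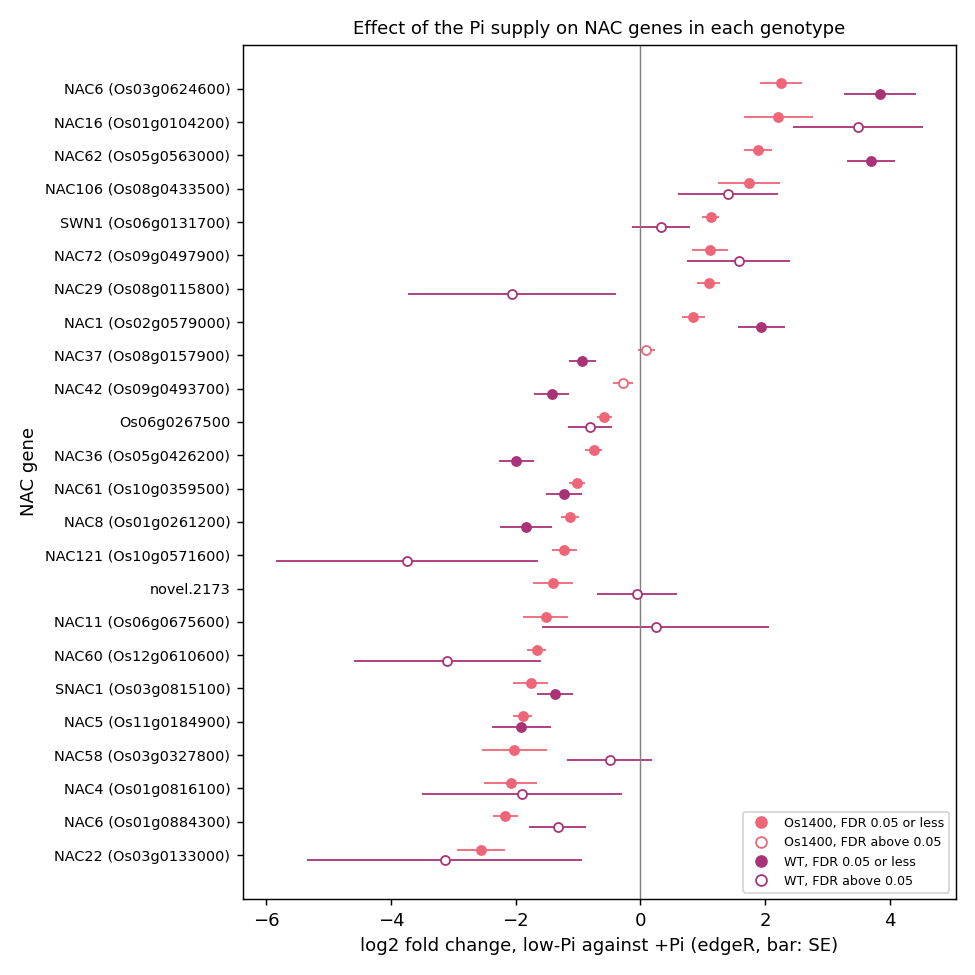
Log2 fold change of low-Pi against +Pi, with its SE, for the NAC genes called in Os1400 or in WT and having counts in the low-Pi WT group, with filled points for an FDR of 0.05 or less. NAC5 (Os11g0184900) was at -1.89 in Os1400 and -1.91 in WT, whereas NAC62 was at 1.88 in Os1400 and 3.70 in WT.

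An interaction term, fitted over the 12 libraries, asked whether the genotypes differed in their response to Pi supply. It is the same number as the difference between the genotype effects at low-Pi and at +Pi. Of 69 NAC genes tested, 8 passed, with 6 above 0 and 2 below (11.6%, against 13.4% of all 28691 genes, 10.6% above and 2.82% below). The median was 0.19 over NAC genes and 0.38 over all genes, so values above 0 were common across the genome in this comparison. Under the limit of 10 or more counts in each library the balance turned, with 3 NAC genes above 0 and 4 below. These were 8.57% and 11.4% of NAC genes, against 7.04% and 7.70% of all genes. The NAC median was then -0.58 and that of all genes -0.040. Of all calls, 47.7% were above 0, against 78.9% without this limit. The limit leaves out every gene at 0 in a low-Pi WT library, so some shift downward is built into it. NAC62 had the clearest difference below 0. It rose more in WT than in Os1400, by 1.84 on the log2 scale (SE 0.44, FDR = 0.0177), and NAC36 fell more in WT, by 1.23 (SE 0.30, FDR = 0.0180). NAC5 (Os11g0184900) had an interaction of 0.0039 ± 0.51 (SE, FDR = 0.9998), and SNAC1 of -0.41 ± 0.44 (SE, FDR = 0.623). Values that miss the threshold do not show that the genotypes responded alike.

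NAC37 (1.01 ± 0.26 (SE), FDR = 0.0251) and NAC42 (1.12 ± 0.31 (SE), FDR = 0.0328) fell in WT and were not called in Os1400. Their log2 fold changes in Os1400 were 0.097 and -0.28. In WT, NAC37 went from 36.6, 26.8 and 38.6 FPKM to 17.2, 21.4 and 16.4 FPKM, whereas in Os1400 it stayed at 32.5 to 38.4 FPKM with Pi and 29.8 to 39.7 FPKM in low-Pi. NAC40 (Os08g0562200) was below 0 (-0.70 ± 0.20 (SE), FDR = 0.0372), being at 43.8, 51.8 and 62.8 FPKM in WT low-Pi against 29.4 to 36.3 FPKM in the other groups. The remaining 3, NAC13, NAC133 and NAC59, were at 0 in all low-Pi WT libraries. Leaving out a library gave 3 to 19 called NAC genes, the omission of WT low-Pi replicate 2 or 3 giving 19 and 18. There were 3 without WT +Pi replicate 1 or Os1400 +Pi replicate 2, 4 without WT +Pi replicate 3, Os1400 +Pi replicate 3 or Os1400 low-Pi replicate 3, and 5 without Os1400 +Pi replicate 1 or Os1400 low-Pi replicate 1. The shares with 1 library left out ran from 4.23% to 26.8% of the NAC genes, against 8.92% to 22.5% of all genes. Of 21 alternatives, NAC62 kept its call in 19, NAC36 in 18, NAC40 in 12, NAC37 in 11 and NAC42 in 8. NAC42 lost it under RLE and upper-quartile normalization, and NAC37 under the upper quartile. For the 3 genes at 0 in low-Pi WT, keeping or losing a call says nothing of stability.

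At +Pi, no NAC gene was called between the genotypes. None of 70 tested passed in edgeR, against 0.958% of all 27777 genes (0.540% higher and 0.418% lower in Os1400). None passed in DESeq2 or limma either. In edgeR, 8 NAC genes had an unadjusted p of at most 0.05, as did 2797 of all 27777 genes. The NAC log2 fold changes of Os1400 against WT ran from -1.39 to 1.498, with 41 above 0 and 29 below. Over all genes, 51.6% were above 0. The smallest FDR, 0.205, was that of NAC60 (Os12g0610600), at 26.2, 20.1 and 26.2 FPKM in WT and 35.9, 32.7 and 32.0 FPKM in Os1400 (0.45 ± 0.13 (SE)). NAC1 (Os02g0579000) was at 26.1 to 29.9 FPKM in WT and 33.04 to 44.7 FPKM in Os1400 (0.45 ± 0.14 (SE), FDR = 0.225). For NAC36 the difference was -0.01 ± 0.09 (SE), the smallest error among the 6 most abundant genes, and for NAC6 (Os01g0884300) it was -0.03 ± 0.12 (SE). None of the 9 companion genes passed at +Pi either.

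At low-Pi, 8 of 61 NAC genes differed between the genotypes, with 6 higher and 2 lower in Os1400 (13.1%, against 16.9% of all 25426 genes, 12.4% higher and 4.47% lower). The median log2 fold change was 0.20 over the NAC genes and 0.22 over all genes, so the family's median was close to that of all genes. The balance of higher and lower genes turned with the processing. Of the 35 NAC genes with 10 or more counts in each library, 2 were higher and 4 lower in Os1400. These were 5.71% and 11.4%, against 6.93% and 9.56% of all genes. The NAC median was -0.54, against -0.036 over all genes under that limit. The limit leaves out every gene at 0 in a low-Pi WT library, so some shift toward lower values is built into it. With a replicate block, 1 was higher and 2 lower (1.64% and 3.28%, against 1.57% and 2.54% of all genes). Over all genes, 73.6% of the calls were higher in Os1400, but 42.0% under that limit and 38.2% with the block. NAC36 was at 143, 136 and 183 FPKM in Os1400 and at 67.4, 48.1 and 99.1 FPKM in WT, without overlap (1.18 ± 0.28 (SE), FDR = 0.0347). NAC37 was also higher in Os1400 (1.01 ± 0.19 (SE), FDR = 0.0187). NAC62 was lower, at 38.9, 27.9 and 54.1 FPKM against 114, 69.2 and 160 FPKM (-1.44 ± 0.36 (SE), FDR = 0.0399), as was NAC40 (-0.72 ± 0.18 (SE), FDR = 0.0409).

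The other 4 were at 0 in all low-Pi WT libraries and passed the filter only through Os1400. The limits given next all lie above the median, which they leave at 0.20. Against the floor of 3 counts per library, Os1400 was at least 35.1-fold higher for NAC13, 18.4-fold for NAC133 and for NAC94 (Os06g0560300), and 5.61-fold for NAC44 (Os02g0285900). Os03g0624600 just missed the threshold (-1.56 ± 0.42 (SE), FDR = 0.0505), and SWN1 had 1.08 ± 0.44 (SE, FDR = 0.180). Of the companion genes, CESA4 was higher in Os1400 (0.97 ± 0.25 (SE), FDR = 0.0471), as was CESA7, at 0 in low-Pi WT. YSL2 and RAB16A, at 0 in low-Pi WT, were not tested there. The green-tissue genes PSBO and CAB1R were likewise at 0 in that group and higher in Os1400 (FDR = 0.0184 for both), though their 6-gene sum reached at most 3.44 FPKM in Os1400 low-Pi, and their part in the result was not tested. Without Os1400 low-Pi replicate 1 or 3, no gene of the whole genome was called, and so no NAC gene. The unadjusted p was at most 0.05 for 12 of 63 and 9 of 62 NAC genes. Over all genes it was so for 5515 of 26220 and 5622 of 26065. Without Os1400 low-Pi replicate 2, 3 NAC genes were called (4.84%, against 7.98% of all genes). The omission of WT low-Pi replicate 2 or 3 gave 14 and 17 (22.2% and 26.6%, against 25.2% and 26.7%). NAC62 kept its call in 1 of the 6 leave-one-out fits, NAC36 and NAC40 in 2, NAC37 in 4 and NAC94 in 0. NAC94 was at 0.430, 0.463 and 3.31 FPKM in Os1400 low-Pi, so its mean rested on replicate 3. The upper quartile gave 6 higher and 3 lower, and DESeq2 8 higher and 6 lower. These calls were 14.8% and 18.2% of the NAC genes, against 17.1% and 21.6% of all genes. Across all genes, 62.7% of the DESeq2 calls were higher in Os1400, and 67.0% of those in the interaction were above 0.

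**Figure D5:**
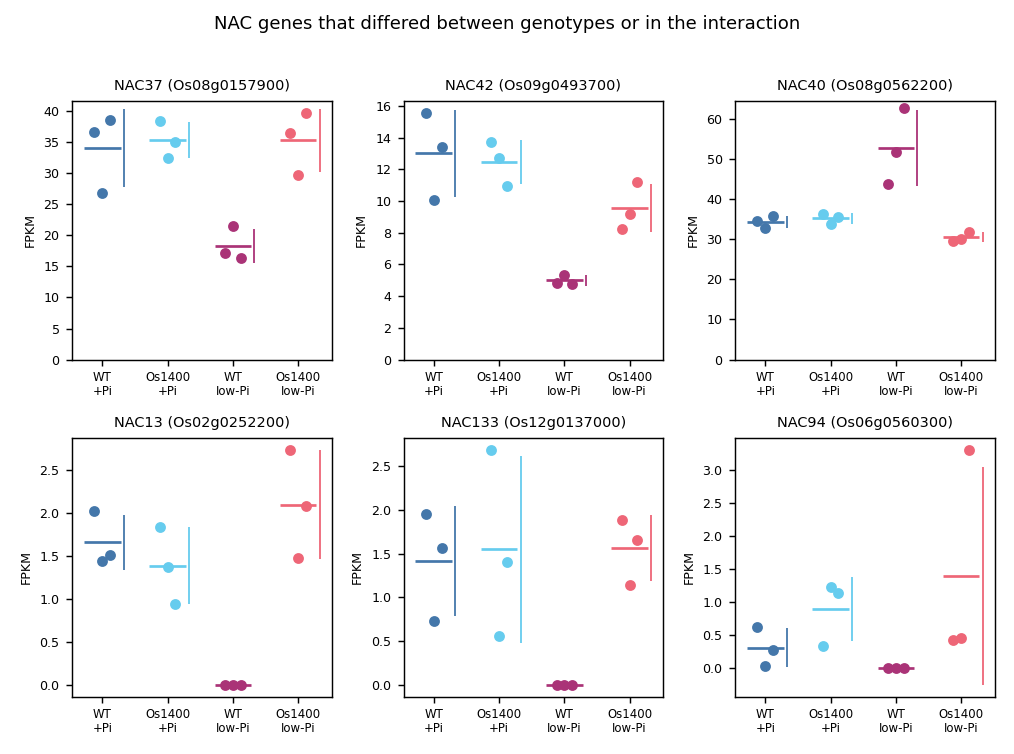
FPKM of 6 NAC genes that differed between the genotypes at low-Pi or in the interaction, with points for libraries, horizontal bars for means and vertical bars for the SD of 3 libraries. NAC37 was at 16.4 to 21.4 FPKM in WT low-Pi and 29.8 to 39.7 FPKM in Os1400 low-Pi, and NAC13, NAC133 and NAC94 were at 0 in all WT low-Pi libraries.

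RIM1 (Os03g0119966), which acts in jasmonate signalling and virus multiplication, was at 2.27 to 6.72 FPKM in all 12 libraries and was called in no comparison, with log2 fold changes of -0.09 to 0.37. NAC3 (Os07g0225300), which the rules for named genes did not select, was at 29.6 to 61.4 FPKM with Pi and 11.0 to 30.3 FPKM in low-Pi. Its log2 fold changes of -1.24 ± 0.47 (SE, FDR = 0.118) in WT and -0.68 ± 0.25 (SE, FDR = 0.0643) in Os1400 did not pass. Summed over all NAC genes, the libraries held 2200 to 2461 CPM in Os1400 +Pi and 1339 to 1861 in Os1400 low-Pi, 1956 to 2239 in WT +Pi and 1082 to 1690 in WT low-Pi. In both genotypes every low-Pi library lay below every +Pi library in this sum. Summed as FPKM, this held in Os1400 (659 to 1018 against 1138 to 1297 FPKM) but not in WT, where low-Pi replicate 3, at 1427 FPKM, was above all +Pi libraries (1009 to 1181 FPKM). NAC36 weighed heavily in the CPM sums of WT. It held 31624, 28030 and 23959 of the 91958, 79971 and 76622 NAC counts in WT +Pi. In WT low-Pi it held 4940, 3340 and 5716 of 37224, 30584 and 51799. The fall of the CPM sum in WT therefore does not show a fall across the family.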

How the data were processed

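Reads were paired-end and were aligned to rice transcripts. The authors deposited unnormalized counts for each gene, in separate tables for +Pi and low-Pi, and FPKM for all libraries. The submitters' processing notes name HISAT2 2.0.5, featureCounts 1.5.0-p3 and DESeq2. The genome build and strand setting are not given in the sources used here. The authors' comparison columns (fold changes, p-values) and 28 columns of repeated or averaged values were not used. NAC genes were taken by domain, and counts analysed as deposited.

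Counts were compared in edgeR 4.0.16 (R 4.3.3) with TMM normalization, filterByExpr (at least 10 counts in enough libraries, 15 in total) and the quasi-likelihood test. The Benjamini-Hochberg adjustment covered all genes tested, and genes at an FDR of 0.05 or less were called. Pi comparisons and the interaction used genes with a row in both tables. Standard errors of the edgeR fits are the absolute log2 fold change divided by the square root of the F statistic. The main edgeR fit and the DESeq2 alternative were tested on simulated counts, and the other alternatives were not. The simulation gave all libraries the same spread, unlike the low-Pi WT group. Alternatives were RLE and upper-quartile normalization, DESeq2 1.42.0, no filter on low counts, at least 10 counts in every library, a replicate block, each library left out, 1 fit of all 12 libraries, and limma 3.58.1 on log2(FPKM + 1) or log2(FPKM + 0.1). Depth sets a floor of 3 counts per library. Replicates differed by a chi-square of at least 18.2 per gene, so none was a copy.

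Named genes were, per comparison, all called members (where more than 8 were called in a direction, the 6 with the smallest p), the 6 most abundant, those with a known role and a name paired by a table, and those called in both Pi comparisons. Some genes, such as NAC3 (Os07g0225300), were described outside these rules. Names came from the authors' table and from NCBI RefSeq (ASM3414082v1), whose coordinates were not used. The members and lists were chosen with earlier results of these data known.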

Additional observations from a re-analysis of the deposited data

Results flagged for a closer look

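For 8 NAC genes, the difference between genotypes depended on Pi supply in the interaction test over all 12 libraries (edgeR, Benjamini-Hochberg adjusted over all genes). NAC62 (Os05g0563000) had an adjusted p of 0.0177 and NAC40 (Os08g0562200) of 0.0372, and in both Os1400 was lower than WT at low-Pi. NAC36 (Os05g0426200) had 0.0180, NAC37 (Os08g0157900) 0.0251 and NAC42 (Os09g0493700) 0.0328, with an interaction above 0. NAC13 (Os02g0252200) had 0.00133, NAC133 (Os12g0137000) 0.00685 and NAC59 (Os01g0862800) 0.0351, and these 3 had no count in any low-Pi WT library. All 8 rest on the low-Pi WT libraries, in which 39 to 54 NAC genes were above 0 FPKM, against 67 to 75 in the other libraries. The part of that difference in these results was not tested.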

How the results depend on the processing

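The low-Pi WT libraries and the 3 libraries per group limit the results. Called NAC genes in Os1400 (22) numbered 6 when all 12 libraries were fitted at once and 19 to 24 with 1 library left out. In WT (15) they numbered 6 with a replicate block, 28 with all 12 libraries and 4 to 28 with 1 library left out. Between genotypes at low-Pi (8) they numbered 14 with DESeq2, 0 with no filter on low counts, 3 with a replicate block, 19 with all 12 libraries and 0 to 17 with 1 library left out. The interaction (8) gave 13 with DESeq2, 4 with limma on log2(FPKM + 1) without a filter and 3 to 19 with 1 library left out. The shares called over all genes moved in the same fits, given here in the same order. In Os1400 (29.6%) they were 8.92% and 20.4% to 28.2%. In WT (23.7%) they were 7.72%, 34.1% and 7.06% to 33.8%. Between genotypes at low-Pi (16.9%) they were 21.6%, 3.99%, 4.11%, 27.2% and 0% to 26.7%. In the interaction (13.4%) they were 18.2%, 7.81% and 8.92% to 22.5%. At +Pi, 0 NAC genes were called under every alternative, against 0.115% to 1.97% of all genes. The cause was not tested. No called NAC gene changed direction in the comparison that called it, under any alternative in which it was tested. The direction of genes that were not called was not checked. Whether replicate numbers paired the libraries cannot be settled with 3 libraries per group. Same-number correlations ran from -0.0426 to 0.232. The highest were 0.168 and 0.232, for replicates 2 and 3 between the genotypes at low-Pi. Different-number correlations in that comparison ran from -0.242 to 0.0736. The block gave 22 NAC calls in Os1400, 6 in the interaction and 0 at +Pi. These were 32.8%, 8.70% and 0%, against 26.6%, 11.2% and 0.994% of all genes.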
